A study of Mus musculus with 15 samples.

Results

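The 38 genes described here encode proteins that fold, modify, move and dispose of proteins at the endoplasmic reticulum (ER) or that sense a fault in that work. They are 11 chaperone genes, 7 genes of disulfide isomerases and oxidases, 7 of the translocon, membrane targeting and vesicle export, 9 of ER-associated degradation and 4 stress sensors or effectors. They were taken by name from the arrays, with every probe of each gene, under the symbols used there (such as Ero1l and Ero1lb, now Ero1a and Ero1b). All 38 had a probe among 32006 named genes, and 55 of 55681 non-control probes belonged to them. The names were chosen by function at a time when earlier results of these arrays were known, with changes of some of the genes both between the cell types and with BAPN among them, so counts and medians over the set are descriptions and support nothing.

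The samples were RNA of 2 kinds of primary mouse lung cell in culture, fibroblasts and type II cells of the alveolar epithelium (ATII). Each cell type received either vehicle (PBS) or 1 mM β-aminopropionitrile (BAPN), an inhibitor of the lysyl oxidases that cross-link collagen and elastin, for 24 h, and the series asks whether BAPN alters gene expression. For fibroblasts there were 4 arrays with vehicle and 3 with BAPN, and for ATII cells 4 of each. Before exposure, fibroblasts had gone through no fewer than 3 passages and a 24 h starvation, whereas ATII cells had spent 3 days at an air-liquid interface until confluent. No genotype, strain, age or genetic change is named in the labels. They also do not say whether replicates were separate animals or cultures. The p-values thus set differences against the spread among these samples only, and that spread may be technical. No fibroblast BAPN sample with the number 3 was analysed here, and the ATII BAPN sample called replicate 5 here is labelled as a replacement without a number. Since each cell type had its own culture regime, the effects of the cell type and of its culture cannot be told apart, and in RNA from whole cultures a change in how many cells of a type are present cannot be told apart from a change in RNA per cell.

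Secreted and membrane proteins enter the ER through the Sec61 channel, are folded by chaperones such as BiP (Hspa5) and by protein disulfide isomerases, and leave in COPII-coated vesicles. Proteins that fail to fold are retrotranslocated and degraded. When unfolded proteins build up, the sensors PERK (Eif2ak3), IRE1 (Ern1) and ATF6 start the unfolded protein response: PERK slows translation, IRE1 splices the mRNA of the transcription factor XBP1, and cleaved ATF6 and spliced XBP1 raise chaperone and degradation genes through short promoter elements. ATII cells secrete surfactant proteins and fibroblasts secrete matrix, so both cell types depend on this machinery.

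Those promoter elements were looked for in the 250 bases before the transcription start, in RefSeq promoters of the build GRCm38.p6, on both strands. The table held 33 of the 38 genes, 2 of them under the present symbols of Ero1l and Ero1lb. Atf6, Manf, Hyou1, Sec61a1 and Derl1 had no entry. The ER stress response element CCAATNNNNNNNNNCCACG stood in 10 of 33 genes (30.3%), against 0.113% of all 32851 promoters. These were Hspa5, Hsp90b1 (with 2 copies), Pdia6, Calr, Canx, Dnajc3, Syvn1, Creld2, Derl3 and Ero1lb. The second element, ATTGGNCCACG, was found in Herpud1 (0.0304% of all promoters), and the XBP1 core TGACGTGG in Sec24d (0.563% of all promoters). All 3 patterns hold CCACG or, read on the other strand, CGTGG, so they overlap in part. A match is a description of letters, not a mapped binding site. Shown here are the windows of the 3 genes with an element that were higher in ATII cells (Hspa5, Herpud1 and Sec24d) and of 3 genes with an element that did not pass that test (Pdia6, Hsp90b1 and Calr), each in gene orientation with the element in capitals.
Hspa5 (chr2:34772005-34772063, + strand): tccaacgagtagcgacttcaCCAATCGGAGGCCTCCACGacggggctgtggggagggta
Herpud1 (chr8:94386357-94386407, + strand): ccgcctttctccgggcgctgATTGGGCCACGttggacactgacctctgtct
Sec24d (chr3:123267450-123267495, + strand): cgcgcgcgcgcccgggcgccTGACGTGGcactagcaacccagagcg
Pdia6 (chr12:17266471-17266529, + strand): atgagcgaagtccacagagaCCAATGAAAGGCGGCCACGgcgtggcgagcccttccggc
Hsp90b1, proximal copy on the other strand (chr10:86705513-86705571, - strand): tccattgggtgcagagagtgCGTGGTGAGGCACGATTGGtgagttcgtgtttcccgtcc
Calr, on the other strand (chr8:84847055-84847113, - strand): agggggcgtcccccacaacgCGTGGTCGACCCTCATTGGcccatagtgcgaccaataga

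Levels are given as normalized log2 level, the log2 of the deposited signal minus the 75th percentile of that array, so that 0 is the signal of a probe at that percentile. A probe's level depends on its sequence, so levels are compared only within a probe. Each gene is represented by its brightest probe. The arrays were similar in quality, with 65.2% to 71.2% of non-control spots well above background and 0 saturated spots. The brightest probe of all 38 genes was well above background on all 15 arrays, as were 51 of the 55 probes, and 34 of 38 genes had a mean level above 0. The 15 arrays lay on 2 slides, each of which held arrays of all 4 groups. The labels were checked against markers: all 6 epithelial and 8 of 10 ATII markers were well above background on every ATII array (Slc34a2 on none). On every fibroblast array 4 of the 6 epithelial markers were above background too, at a summed level of 1.84 to 4.08 (log2) with vehicle against 9.1 to 9.51 in vehicle-treated ATII cells, and Cdh1 was so on none. All 8 fibroblast markers were above background on every ATII array too. Their summed level was 9.12 to 9.64 (log2) in vehicle-treated ATII cells and 9.41 to 9.91 in vehicle-treated fibroblasts. Tested singly by limma, 4 of the 8 were lower in ATII cells in vehicle and 0 higher (median log2 change −0.85). Under BAPN, 5 of the 8 were lower and 0 higher (median −1.35). Of all tested probes, 18.8% were lower in vehicle and 17.2% under BAPN. Of the 10 ATII markers, 5 were above background on every fibroblast array. The 10 summed to 5.31 to 5.42 in vehicle-treated ATII cells and 4.81 to 5 in vehicle-treated fibroblasts. In vehicle, 6 of 8 tested ATII markers were higher in ATII cells and 0 lower (median 2.02). Of 4 alveolar type I markers, 3 were higher there too and 0 lower (median 3.15), against 14.7% of all tested probes higher.

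In vehicle, the ER genes that differed between cell types were all higher in ATII cells. Of 38 genes, 14 were higher and 0 lower (limma, Benjamini-Hochberg adjusted over 39079 probes, threshold 0.05), whereas 14.7% of all tested probes were called higher and 18.8% lower. Among probes with a mean level above 0, where most of these genes lie, 22.6% were called higher. The genes' median log2 change was 0.27 and 35 of 38 changes were above 0, against a median of −0.15 over all tested probes and 0.00 over probes with a mean level above 0. Changes were above 0 for 36.8% of all tested probes and for 50% of those with a mean level above 0. Quantile scaling moved the median of all probes to −0.01 and the genes' median to 0.26. Levels did not overlap between the cell types for 19 genes, all higher in ATII cells, against 15.5% of all probes higher.

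Stress sensors and effectors held the largest change. Eif2ak3, which encodes the sensor kinase PERK, had levels of 1.76, 1.87, 1.74 and 1.82 on the ATII vehicle arrays and 0.18, 0.19, 0.09 and 0.50 on the fibroblast vehicle arrays. The lowest ATII array stood far above the highest fibroblast array. The change was 1.56 ± 0.12 (SE; 2.94-fold; adjusted p = 3.39e-07). Xbp1, the transcription factor gene whose mRNA IRE1 splices, read 5.77, 5.98, 5.93 and 5.91 in ATII cells and 5.16, 5.11, 5.01 and 5.24 in fibroblasts. These groups were also apart, with a change of 0.77 ± 0.10 (1.71-fold; adjusted p = 4.4e-05). The array does not separate spliced from unspliced Xbp1 mRNA. Ern1 (IRE1), with 0.16 ± 0.12, and Atf6, with 0.23 ± 0.15, did not pass (adjusted p = 0.373 and 0.3).

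**Figure D1:**
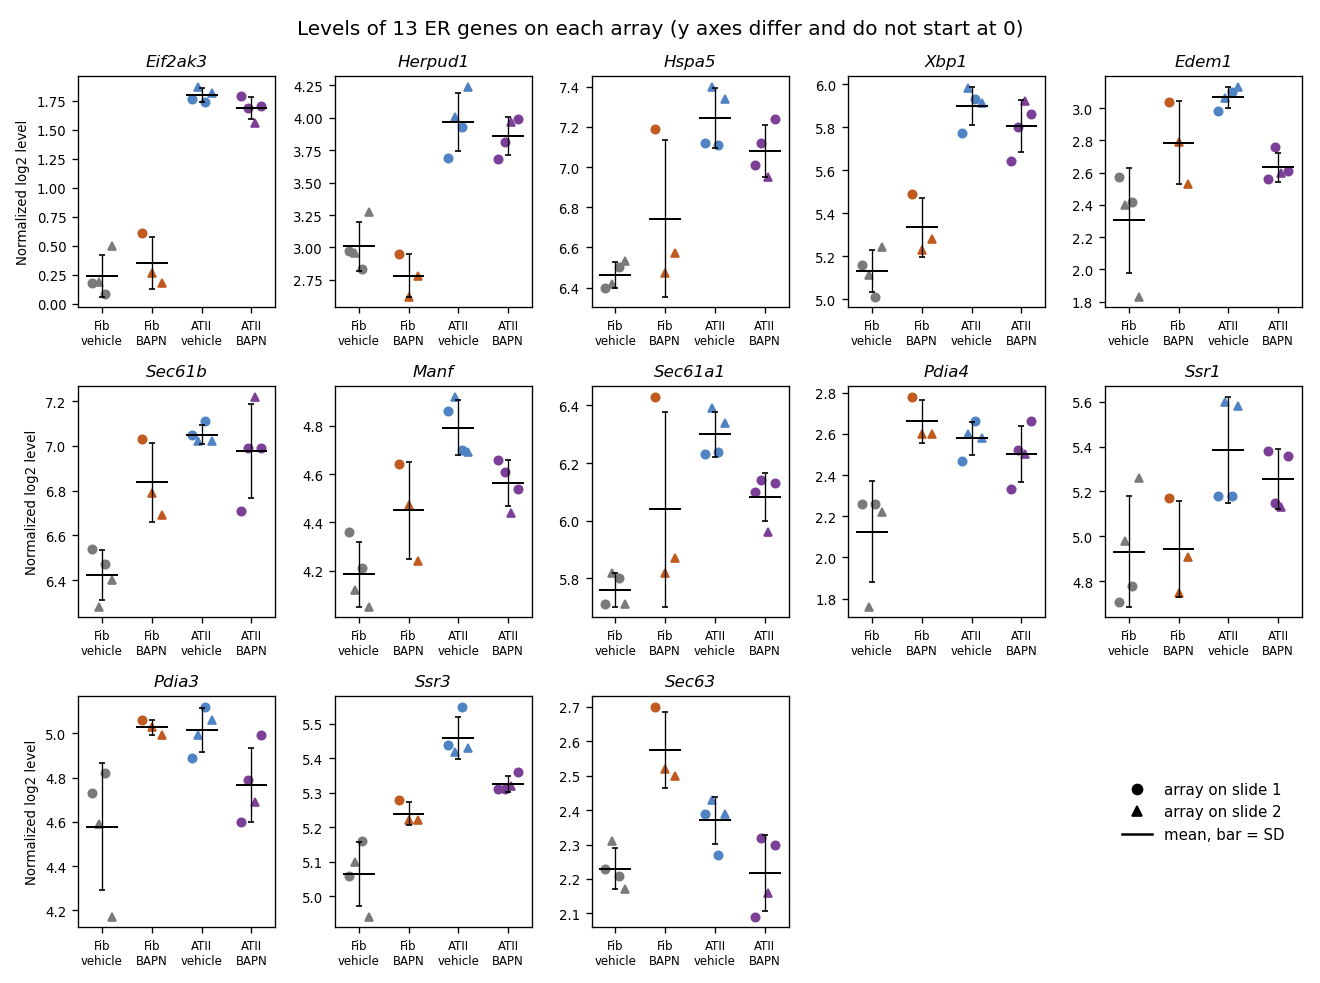
Normalized log2 level (y axis, per-gene scale) of 13 ER genes on each array, by group (x axis: 4 vehicle and 3 BAPN fibroblast arrays, 4 vehicle and 4 BAPN ATII arrays); circles are slide 1, triangles slide 2, lines the mean and bars the SD. Eif2ak3 and Herpud1 are higher on every ATII array than on any fibroblast array of either treatment, while fibroblast BAPN replicate 1 stands at 7.19 for Hspa5 against 6.47 and 6.57 on the other 2 BAPN arrays.

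Of 9 degradation genes, 2 were higher, close to the 22.6% called higher among all probes with a mean level above 0. Herpud1, a membrane protein that helps assemble the degradation complex, measured 3.69, 4.01, 3.93 and 4.24 on the ATII arrays and 2.97, 2.96, 2.83 and 3.27 on the fibroblast arrays. No values overlapped, and the change was 0.96 ± 0.14 (1.95-fold; adjusted p = 0.000115). Edem1, a lectin that picks misfolded glycoproteins for disposal, measured 2.98, 3.06, 3.1 and 3.13 against 2.57, 2.40, 2.42 and 1.83. Fibroblast replicate 4 was the lowest and ATII cells varied little (0.76 ± 0.15; adjusted p = 0.00152). The ubiquitin ligase gene Syvn1 (0.23), its partner Sel1l (0.10), the lectin Os9 (0.11), Edem2 (0.23) and the derlins Derl1 (0.34), Derl2 (0.04) and Derl3 (−0.19) did not pass.

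Of 11 chaperone genes, 3 were higher, also near the 22.6% of probes with a mean level above 0. Hspa5, the main ER chaperone and a regulator of the sensors, read 7.12, 7.40, 7.11 and 7.34 in ATII cells and 6.40, 6.42, 6.50 and 6.53 in fibroblasts. The fibroblast values lay within a narrow band below all ATII values (0.78 ± 0.15; 1.72-fold; adjusted p = 0.000923). Manf, a secreted stress-induced factor that binds BiP, read 4.86, 4.92, 4.70 and 4.69 against 4.36, 4.12, 4.21 and 4.05. Its groups were apart as well (0.60 ± 0.11; adjusted p = 0.000854). Dnajb11, a BiP co-chaperone, changed by 0.28 ± 0.09 (adjusted p = 0.0244). The other 8 chaperone genes, among them Hsp90b1 (GRP94; 0.30 ± 0.12, adjusted p = 0.0751) and the lectin chaperones Calr (0.09) and Canx (0.12), did not pass, with changes between 0.03 for Dnajc3 and 0.38 for Hyou1.

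The translocon and targeting genes passed most often, 5 of 7, against 22.6% of probes with a mean level above 0. Sec61b, a subunit of the channel, had levels of 7.05, 7.02, 7.11 and 7.02 in ATII cells and 6.54, 6.28, 6.47 and 6.40 in fibroblasts. The ATII values were nearly equal and all above the fibroblast values (0.63 ± 0.12; adjusted p = 0.00086). Sec61a1, the pore-forming subunit, had 6.23, 6.39, 6.24 and 6.34 against 5.71, 5.82, 5.80 and 5.71. The groups did not overlap (0.54 ± 0.12; adjusted p = 0.00389). Ssr3, a subunit of the translocon-associated TRAP complex, had 5.44, 5.42, 5.55 and 5.43 against 5.06, 5.10, 5.16 and 4.94. This was a smaller but tight difference (0.40 ± 0.08; adjusted p = 0.00159). Ssr1, another TRAP subunit, had 5.18, 5.60, 5.18 and 5.58 against 4.71, 4.98, 4.78 and 5.26. Fibroblast replicate 4 exceeded the 2 lowest ATII values (0.45 ± 0.15; adjusted p = 0.0359). The COPII coat gene Sec24d changed by 0.39 ± 0.12 (adjusted p = 0.0183), whereas the signal recognition particle receptor subunit Srprb (0.27, adjusted p = 0.0504) and the Sec61 partner Sec63 (0.14) did not pass.

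Of 7 isomerase and oxidase genes, 2 were higher, again near the 22.6% of probes with a mean level above 0. Pdia4 had levels of 2.47, 2.60, 2.66 and 2.58 in ATII cells and 2.26, 1.76, 2.26 and 2.22 in fibroblasts. Fibroblast replicate 2 was far below the other 3, and no value overlapped (0.46 ± 0.12; adjusted p = 0.0107). Pdia3, which works with calnexin and calreticulin on glycoproteins, had 4.89, 4.99, 5.12 and 5.06 against 4.73, 4.59, 4.82 and 4.17. Fibroblast replicate 4 was the lowest there (0.44 ± 0.14; adjusted p = 0.0233). P4hb (0.13), Pdia5 (0.27), Pdia6 (0.27) and the oxidases Ero1l (−0.10 ± 0.30) and Ero1lb (−0.24 ± 0.15), which recharge the isomerases, did not pass.

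Eif2ak3, Herpud1, Hspa5, Xbp1, Edem1, Sec61b, Manf and Sec61a1 were called under all 22 alternative settings, and the same 8 genes were called on slide 1 alone and on slide 2 alone. Single arrays decided 4 other calls: Dnajb11 was lost without ATII replicate 2 or fibroblast replicate 2 or 3 (adjusted p = 0.072, 0.0599 and 0.0503), Pdia3 without ATII replicate 3 or 4 or fibroblast replicate 4 (0.0604, 0.0555 and 0.0503), Sec24d without ATII replicate 2 (0.056), and Ssr1 without ATII replicate 2 or 4 or fibroblast replicate 1, 2 or 3 (0.108, 0.105, 0.103, 0.0583 and 0.0963). Of the 10 genes with the ER stress response element, 1 was higher (Hspa5; median change 0.14), and of the 23 searched genes without it, 11 were (median 0.27). Those 11 include Herpud1, with the second element, and Sec24d, with the XBP1 core. Over all tested probes, 14.7% were called higher. Markers of other cells differed as well: the summed level of 8 macrophage and leukocyte markers was 4.46 to 5.37 (log2) in vehicle-treated fibroblasts, all 8 being on every array, and 2.38 to 2.75 in vehicle-treated ATII cells, with 7 on every array. The 4 airway markers summed to −1.26 to −0.84 and 0.92 to 3.12, with Foxj1 above background on no vehicle-treated fibroblast array, and the part of these cells in the differences was not tested.

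**Figure D2:**
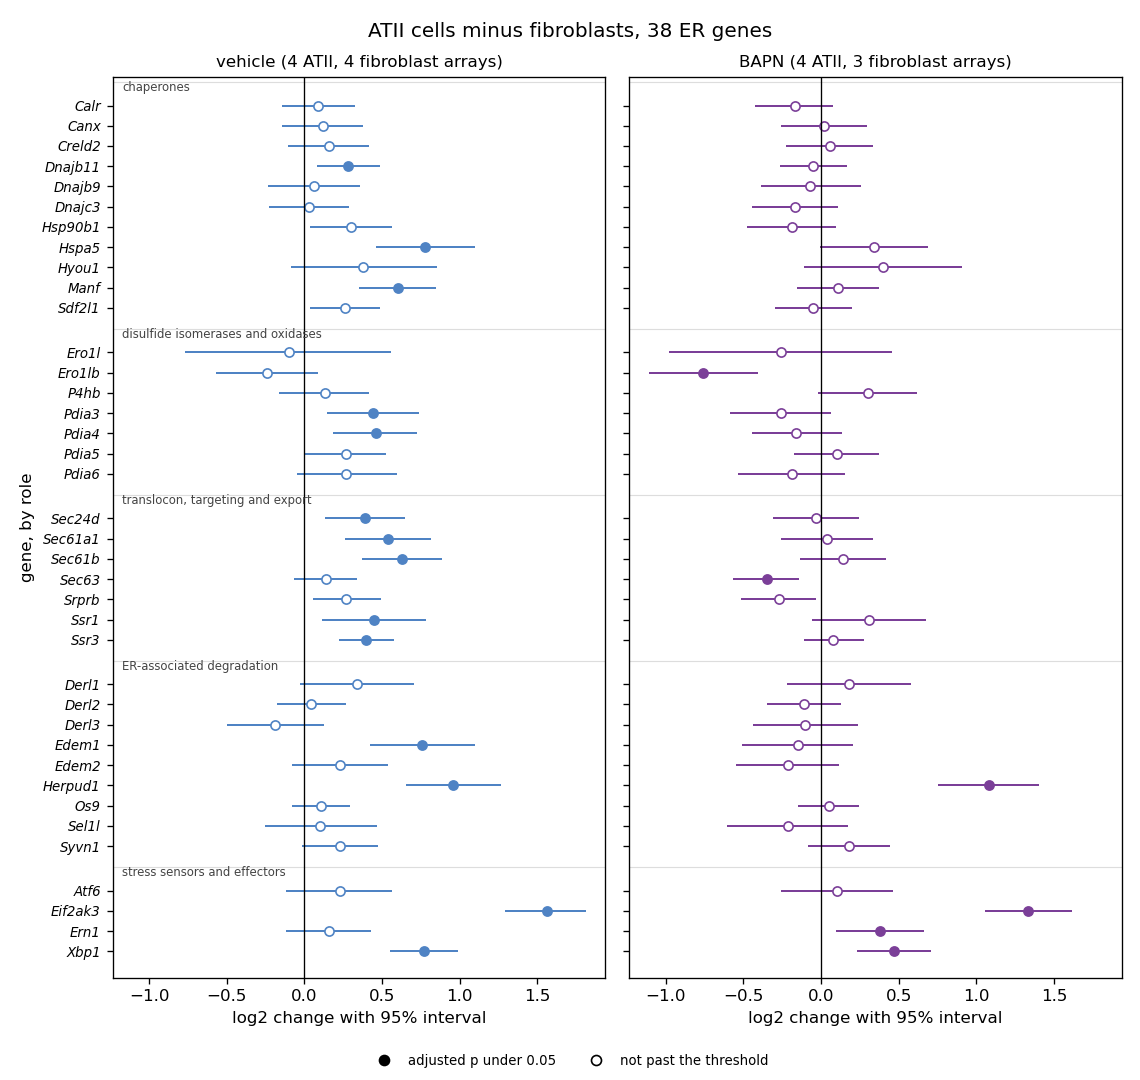
Log2 change, ATII cells minus fibroblasts (x axis, points with 95% intervals), for 38 ER genes by role (y axis), in vehicle on the left and under BAPN on the right; filled points passed the adjusted p threshold of 0.05. In vehicle, 14 points are filled, all to the right of 0; under BAPN, 4 are filled to the right and 2 to the left.

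Under BAPN, fewer of the genes separated the cell types. Of 38 genes, 4 were higher in ATII cells and 2 lower, against 13.8% of 38828 probes higher and 17.2% lower. Levels did not overlap for 6 genes higher (15.7% of all probes) and 3 lower (19.9%). The median change was 0.00, against −0.01 over all probes. Eif2ak3 had levels of 1.79, 1.69, 1.56 and 1.70 on the ATII BAPN arrays and 0.61, 0.27 and 0.18 on the fibroblast BAPN arrays. The lowest ATII value was again well above the highest fibroblast value (1.33 ± 0.13; adjusted p = 3.59e-06). Herpud1 had 3.68, 3.81, 3.97 and 3.99 against 2.95, 2.62 and 2.78, also without overlap (1.08 ± 0.15; adjusted p = 9.29e-05). Xbp1 had 5.64, 5.80, 5.92 and 5.86 against 5.49, 5.23 and 5.28, a narrower gap (0.47 ± 0.11; adjusted p = 0.00399). Ern1 was higher by 0.38 ± 0.13 (adjusted p = 0.0405).

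The 2 lower genes were Ero1lb, an oxidase of the isomerases, and Sec63. Ero1lb had levels of −1.53, −1.60, −2.16 and −1.84 in ATII cells and −1.02, −0.94 and −1.12 in fibroblasts. Every ATII value was below every fibroblast value (−0.76 ± 0.16; adjusted p = 0.00243). Sec63 had 2.09, 2.32, 2.16 and 2.30 against 2.70, 2.52 and 2.5, again apart (−0.35 ± 0.10; adjusted p = 0.013).

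Of the 14 genes higher in vehicle, 3 were also higher under BAPN and 9 had a change above 0, and the change was smaller under BAPN for 13 of the 14 and for 33 of all 38. Since the 14 were picked by their change in vehicle, this is a description, and the test of that difference, which is also the difference of the BAPN effects, is given with those effects. Hspa5, for example, went from 0.78 to 0.34 (adjusted p = 0.127), Edem1 from 0.76 to −0.15, Sec61b from 0.63 to 0.14 and Sec61a1 from 0.54 to 0.04. The Hspa5 result under BAPN depended on the scaling and on single arrays. It passed with quantile scaling (0.44; adjusted p = 0.0308), with the deposited table (0.43; 0.0316) and in 1 of 7 fits with an array left out. Eif2ak3, Ero1lb and Herpud1 were also called on each slide alone, but there the fibroblast BAPN group had 1 array on slide 1 and the ATII BAPN group 1 array on slide 2, which the fit assumes to vary like the other groups. The Ern1 call was lost without ATII BAPN replicate 1, 4 or 5 or fibroblast BAPN replicate 1 or 4 (adjusted p = 0.0791, 0.0779, 0.0745, 0.151 and 0.0635).

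In fibroblasts, 3 of the 38 genes were higher with BAPN and none was lower: the isomerase gene Pdia4 and the translocon genes Sec61b and Sec63. The background was 1.92% of 38720 probes higher and 10.6% lower, and among probes with a mean level above 0 it was 4.13% higher. The median change of the 38 genes was 0.18, with 33 above 0, against 0.00 over all probes and 0.06 over probes with a mean level above 0. Changes were above 0 for 50.1% of all probes and for 60.1% of those with a mean level above 0. BAPN and vehicle arrays did not overlap for 13 genes, all higher with BAPN (6.43% of all probes did so), and 11 genes had an unadjusted p under 0.05 (26% of all probes). The 95% interval of every one of the 38 changes lay within a 2-fold change in either direction.

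Pdia4 had levels of 2.78, 2.60 and 2.60 with BAPN and 2.26, 1.76, 2.26 and 2.22 with vehicle. All BAPN values were above all vehicle values, and vehicle replicate 2 was the lowest by a wide margin (0.54 ± 0.13; 1.45-fold; adjusted p = 0.0209; 0.42 with adjusted p = 0.0473 without that array). Sec61b had 7.03, 6.79 and 6.69 against 6.54, 6.28, 6.47 and 6.40. The groups were apart, BAPN replicate 1 being the highest (0.42 ± 0.13; 1.33-fold; adjusted p = 0.0455). Sec63 had 2.70, 2.52 and 2.5 against 2.23, 2.31, 2.21 and 2.17, with the same array highest (0.34 ± 0.10; 1.27-fold; adjusted p = 0.035). On slides 1 and 2 taken alone, the changes were 0.52 and 0.61 for Pdia4, 0.53 and 0.40 for Sec61b and 0.48 and 0.27 for Sec63, and none passed; slide 1 holds 1 fibroblast BAPN array. In the array's annotation (mm9) the probes lie at chr6:47746516-47746575 on the - strand for Pdia4, at chr4:47495923-47495982 on the + strand for Sec61b and at chr10:42543733-42547689, a span longer than the probe, on the + strand for Sec63. The comparison with ATII cells in vehicle uses the same 4 vehicle arrays of fibroblasts, so the calls of Pdia4 and Sec61b there are not independent of these.

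Genes next to the threshold were Pdia6 (0.50 ± 0.16; adjusted p = 0.0536), Pdia3 (0.45 ± 0.15; 0.0629), Dnajb11 (0.29 ± 0.10; 0.0688), Edem1 (0.48 ± 0.16; 0.0757) and Sec24d (0.35 ± 0.12; 0.0873). Pdia3 read 5.06, 5.03 and 4.99 with BAPN and 4.73, 4.59, 4.82 and 4.17 with vehicle, and Pdia6, an abundant isomerase, 7.82, 7.33 and 7.5 against 7.17, 6.68, 7.01 and 7.32. Both were without overlap. All 7 translocon, targeting and export genes and all 11 chaperone genes had changes above 0, from 0.01 (Ssr1) to 0.42 and from 0.05 (Dnajc3) to 0.31 (Hsp90b1). Among probes with a mean level above 0, 60.1% had changes above 0. Changes were below 0 for 5 genes, Ern1 (−0.26), Derl3 (−0.24), Herpud1 (−0.23), Syvn1 (−0.09) and P4hb (−0.07), none of which passed. The sensor gene Eif2ak3 had 0.11 ± 0.13 and Xbp1 0.20 ± 0.11, neither past the threshold.

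**Figure D3:**
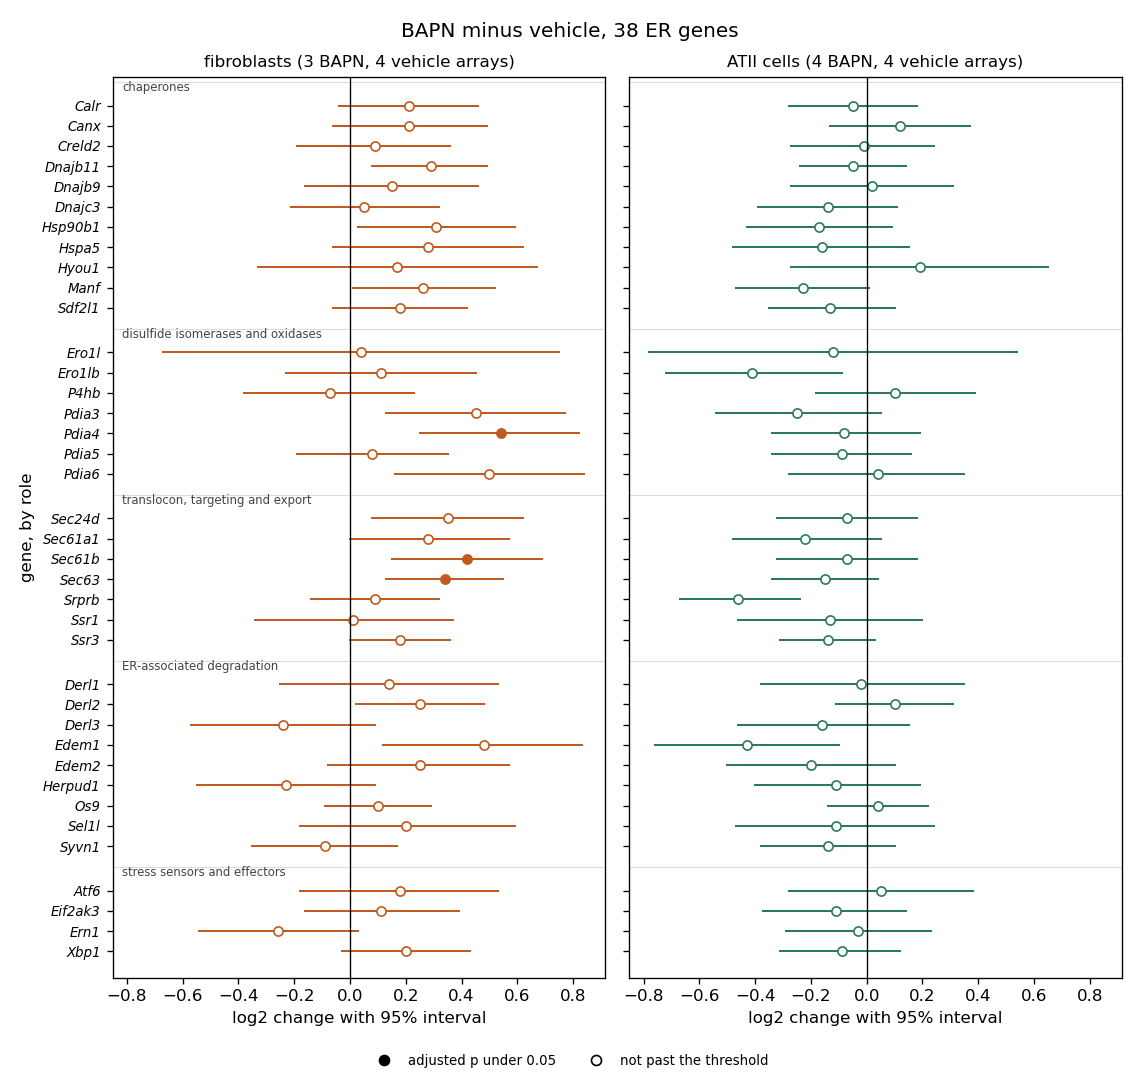
Log2 change, BAPN minus vehicle (x axis, points with 95% intervals), for 38 ER genes by role (y axis), in fibroblasts on the left and ATII cells on the right; filled points passed the adjusted p threshold of 0.05. In fibroblasts 33 points lie right of 0 and 3 are filled (Pdia4, Sec61b and Sec63); in ATII cells 30 lie left of 0 and none is filled.

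The 3 fibroblast BAPN arrays did not contribute equally. Relative to the mean of the vehicle arrays, the median of the 38 genes was 0.24 on BAPN replicate 1, 0.15 on replicate 2 and 0.11 on replicate 4, with 31, 30 and 31 genes above that mean. Over all probes with a mean level above 0 the same medians were 0.09, 0.04 and 0.03. Hspa5 read 7.19 on replicate 1 but 6.47 and 6.57 on the others, against 6.40 to 6.53 with vehicle, and Sec61a1 read 6.43 against 5.82 and 5.87. None of the 38 genes passed when BAPN replicate 1, 2 or 4 was left out, and 1 passed without vehicle replicate 2. Sec61b and Sec63 lost their call whichever 1 of the 7 fibroblast arrays was left out (lowest adjusted p = 0.0511 and 0.0573), and Pdia4 kept it in 4 of the 7 fits. The median of the 38 genes stayed between 0.14 and 0.21 in all 7 such fits. With the replicate number as a block, none of the 38720 probes passed.

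The change in fibroblasts also followed the column of the spot on the array. Across probes with 1 spot and a mean level above 0, the median change was 0.15 in columns above 82 and −0.03 in columns up to 82, and 3.35% and 0.463% of all probes in the same column ranges were called higher. Pdia4 and Sec61b have their spots at columns 132 and 140. The genes' median was 0.21 over the 17 genes with their spot above column 82 and 0.13 over the 18 genes up to column 82. Each array was then corrected for spot column within ranges of mean level, which also removes shifts that depend on level. After that, Pdia4 had 0.35 (adjusted p = 0.106), Sec61b 0.24 (0.221) and Sec63 0.25 (0.164). The genes' median was 0.14, and the single call was Edem2. Over all probes that correction changed 742 higher and 4100 lower calls to 859 and 1447. Quantile scaling, which uses no spot columns, gave 704 and 2637. The parts of column and of level in the lost calls were not separated.

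The brightest probes of 3 genes are printed 10 times across the array, so the same RNA was read at different columns. For Sec63, 9 spots could be measured on all fibroblast arrays, and their changes ran from 0.15 to 0.50, with a mean of 0.44 over 5 spots above column 82 and 0.23 over the other 4. All 9 were above 0. For Creld2, a BiP-binding stress-induced protein, the 10 spots ran from −0.09 to 0.28 (means 0.21 and 0.01). For Os9, 9 spots ran from −0.14 to 0.25 (means 0.16 and −0.08), so the sign depended on the side of the array. In vehicle, by contrast, the change between cell types was 0.10 to 0.16 for all 9 measured Os9 spots and 0.03 to 0.21 for all 10 of Creld2.

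**Figure D4:**
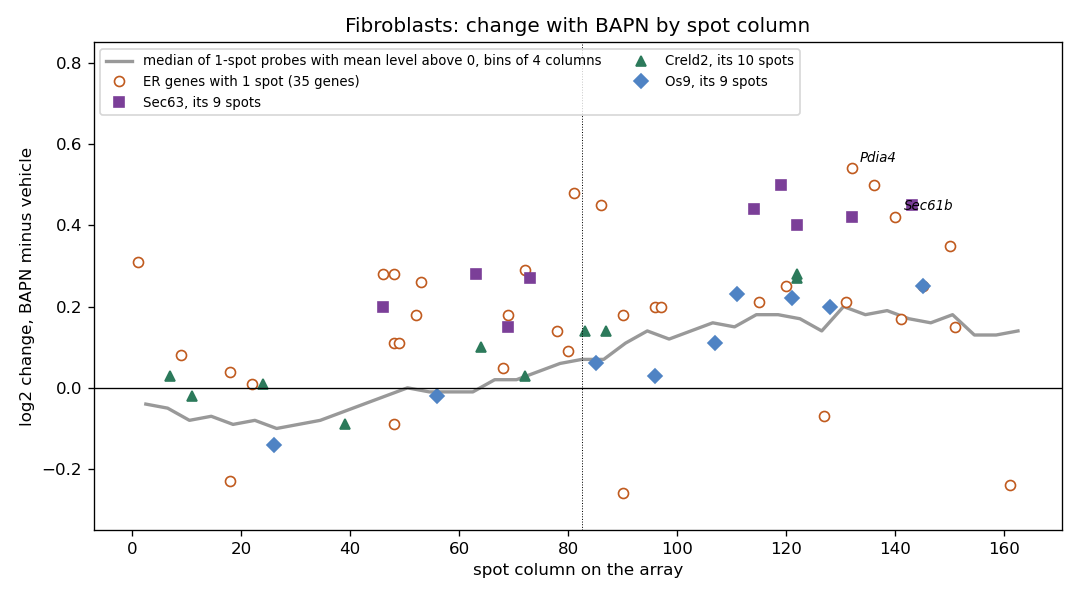
Log2 change, BAPN minus vehicle in fibroblasts (y axis), by spot column on the array (x axis); open circles are the 35 ER genes with a single spot, filled symbols the separate spots of 3 genes printed 10 times, and the grey line the median of all single-spot probes with a mean level above 0 in bins of 4 columns. The grey line climbs from −0.10 at columns 25 to 28 to 0.20 at columns 129 to 132, and spots of Os9 and Creld2 above column 82 lie higher on average than their spots below it, while all 9 measured spots of Sec63 lie above 0.

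Markers of other cells were also compared between fibroblasts with BAPN and with vehicle. The summed level of 4 endothelial markers was 3.27 to 3.62 (log2) with vehicle and 2.57 to 3.07 with BAPN, and that of 4 alveolar type I markers was 6.05 to 6.45 and 6.50 to 7.06. The 4 airway markers summed to −1.26 to −0.84 and −1.65 to −1.1, which overlap. The 6 epithelial markers summed to nearly the same range, 1.84 to 4.08 and 1.82 to 4.11. Lower with BAPN were 1 of 3 tested endothelial markers (Kdr, −0.55 ± 0.17; adjusted p = 0.0464), 1 of 3 tested airway markers (Muc5b, −0.92 ± 0.17; 0.00863) and 1 of 4 tested epithelial markers (Cldn4, −2.16 ± 0.40; 0.00787), and no marker of the 7 lists was higher. The other tested members of these lists did not pass, and over all tested probes 10.6% were called lower and 1.92% higher. Of the epithelial markers, 4 of 6 were well above background on every fibroblast array of both treatments, whereas Cdh1 was so on none. The part of these markers in the changes of the ER genes was not tested.

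In ATII cells, none of the 38 genes changed with BAPN by limma, nor did any of 38559 probes (0%). The genes' changes leaned downward, with 30 of 38 below 0 and a median of −0.11, against −0.01 over all probes. Changes were above 0 for 48.4% of all probes and for 49.3% of those with a mean level above 0. An unadjusted p under 0.05 was found for 3 genes (10.53% of all probes): Srprb (−0.46 ± 0.10; adjusted p = 0.451), Edem1 (−0.43 ± 0.15; 0.465) and Ero1lb (−0.41 ± 0.15; 0.465). Edem1 had levels of 2.56, 2.76, 2.60 and 2.61 with BAPN and 2.98, 3.06, 3.1 and 3.13 with vehicle, without overlap. For 5 genes (Srprb, Edem1, Manf, Sec61a1 and Ssr3) all BAPN values lay below all vehicle values, as for 6.32% of all probes. The 95% intervals of all 38 changes lay within a 2-fold change, and that of Hspa5 ran from −0.48 to 0.15.

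The lean was not even across the array or across samples. All 18 genes in columns up to 82 had changes below 0 (median −0.14), against 10 of the 17 in columns above 82 (median −0.05). The 4 BAPN arrays had medians of −0.15, −0.08, −0.10 and −0.05 relative to the vehicle mean (replicates 1, 3, 4 and 5), and without replicate 1 the genes' median change was −0.04. On replicate 4 the median was 0.11 for genes above column 82 and −0.25 for genes up to it.

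The effect of BAPN was then compared between the cell types. None of 38 genes and none of 41163 probes (0%) differed by limma, although 15 genes had an unadjusted p under 0.05 (14.17% of all probes). The median difference, ATII minus fibroblasts, was −0.28 and 33 of 38 were below 0, against a median of 0.08 over all probes and −0.05 over probes with a mean level above 0. Differences were above 0 for 57.4% of all probes and for 42.2% of those with a mean level above 0. The largest were Edem1 (−0.91 ± 0.22; adjusted p = 0.168), Pdia3 (−0.70 ± 0.20; 0.19), Pdia4 (−0.61 ± 0.18; 0.197) and Srprb (−0.55 ± 0.15; 0.174). The 95% interval of the difference for Edem1 ran from −1.39 to −0.42 and that for Pdia4 from −1.01 to −0.22. The call of Pdia4 in fibroblasts and its absence in ATII cells (−0.08 ± 0.12) are therefore not shown to differ after adjustment.

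A further 88 genes of the same pathways were listed by function, and 85 had a probe with a value on all arrays. In vehicle, 32 of the 85 were higher in ATII cells and 6 lower (median 0.17), against 14.7% of all tested probes higher and 18.8% lower. Among the higher were the TRAP subunit gene Ssr2 (1.17 ± 0.10), the signal peptidase subunit Spcs3 (1.11 ± 0.17), the ER calcium-binding protein gene Nucb2 (1.14 ± 0.11), the COPII coat gene Sec23a (0.84 ± 0.14) and the oligosaccharyltransferase subunits Ostc (0.83 ± 0.17) and Stt3a (0.80 ± 0.17). Of 12 stress signalling genes 5 were higher: Trib3 (2.39 ± 0.31), Atf4 (0.83 ± 0.17), Creb3l2 (1.16 ± 0.14) and Creb3l1 (0.84 ± 0.15), membrane-bound transcription factors related to ATF6, and Stc2 (0.62 ± 0.21). The activity of PERK or of the other sensors was not measured. Ddit3, the gene of the transcription factor CHOP, did not pass (0.44 ± 0.36; adjusted p = 0.387). Wfs1, an ER membrane protein gene, was lower (−1.07 ± 0.11), as was Mcfd2, the partner of a cargo receptor (−0.87 ± 0.12).

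Under BAPN, 15 of 84 tested genes of these lists were higher in ATII cells and 8 lower, against 13.8% and 17.2% of all tested probes. With BAPN in fibroblasts, 5 of 84 were higher and 1 lower (median 0.06), against 1.92% and 10.6% of all tested probes and 4.13% higher among probes with a mean level above 0: Spcs3 (0.71 ± 0.18; adjusted p = 0.0244), the disulfide reductase gene Dnajc10 (0.53 ± 0.11; 0.0135), the ER membrane protein gene Selk (0.50 ± 0.12; 0.0166), Sec62, the partner of Sec63 (0.36 ± 0.10; 0.0278), the prolyl isomerase gene Fkbp2 (0.33 ± 0.10; 0.0438) and, lower, Calr3 (−0.53 ± 0.16; 0.0485). How these calls depend on spot column or on single arrays is not given here, so they are no firmer than those of Pdia4, Sec61b and Sec63. None of the 12 stress signalling genes passed with BAPN in fibroblasts. In ATII cells, 0 of 85 changed with BAPN.

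Of the 38 genes, 11 had several probes, and some of these disagreed. The 2 other Sec61b probes changed by 0.14 and 0.04 with BAPN in fibroblasts (adjusted p = 0.488 and 0.895), and one of them is placed on chromosome 15 by the array's annotation (mm9), away from the gene on chromosome 4, so the Sec61b call rests on 1 probe. The other Sec63 probe changed by 0.14 (adjusted p = 0.672). In vehicle, 1 of the 2 other Ssr1 probes passed (0.51 ± 0.09; adjusted p = 0.000795) and 1 did not (0.08), the other Ssr3 probe did not pass (0.12), and a second probe of Derl1 did (0.57; adjusted p = 0.004). Between the cell types under BAPN, another Ern1 probe did not pass (0.09; adjusted p = 0.745). A second Derl1 probe (0.59; 0.00595) and the Sec61b probe placed on chromosome 15 (0.37; 0.026) were higher there, and a Derl2 probe was lower (−0.26; 0.0373). The brightest probes of Derl1, Sec61b and Derl2 were not called. A dim probe of Ern1 was lower with BAPN in fibroblasts (−1.63; adjusted p = 0.0288), whereas the brightest one was not called (−0.26). The dim probe was well above background on 8 of 15 arrays.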

How the data were processed

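RNA was labelled with Cy3 and hybridised to 1-colour Agilent mouse arrays with 59305 non-control spots of 55681 probes, 1 array per sample. The spot intensities were extracted, background-subtracted and spatially detrended with Agilent Feature Extraction (version 10.7.3.1) by the authors, per the file headers, which place probes on the mouse build mm9. A table of log2 values was also deposited by the authors. It matched a quantile normalization of the same arrays (all columns had the median 5.96) and served as an alternative.

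From the deposited processed signal, log2 was taken and each array's 75th percentile over non-control spots subtracted. Spots with outlier flags were left out, spots of a probe were averaged, and 469 probes without a value on every array, none of the 38 genes, were dropped. Probes entered a comparison if at least 3 arrays of its groups showed them well above background. Models were fitted across all tested probes with limma 3.58.1 (lmFit and eBayes, R 4.3.3) on all 15 arrays with 1 mean per group (residual df 11), two-sided, with Benjamini-Hochberg adjustment over all tested probes and a threshold of 0.05. Every adjusted p given is limma's, ± after a change is its standard error, and intervals are 95% intervals of the fit. The fits were tested on simulated data. A gene was called by its brightest probe.

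Members and lists were chosen with earlier results of these data known. Levels on every array are given for genes called in a BAPN comparison and for the 12 genes with the largest change between cell types in vehicle. Those of Ero1lb and Pdia6, and the genes named from the other pathway lists, were chosen after their values were seen. Alternatives were another background correction, quantile scaling, the deposited table, other filters on dim probes, 1 probe per gene, only the groups compared, the replicate number or slide as a block, each slide alone, a correction for spot column, and each array left out. All 15 columns of the deposited table were mapped to samples, leaving 0 unmapped.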

Additional observations from a re-analysis of the deposited data

Results flagged for a closer look

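In 114 sets of 4 arrays (38 genes in the 3 groups of that size; the fibroblast BAPN group has 3 arrays and was not checked), 8 had an array whose gap to the nearest other took up more than Dixon's 95% limit of the range. Chance alone gives this in about 1 set in 20. In vehicle-treated fibroblasts, Pdia4 was at 1.76 on replicate 2 (the others at 2.22 to 2.26), and Creld2 at 5.16 on replicate 4 (4.67 to 4.71). In vehicle-treated ATII cells, replicate 3 stood apart for Dnajb9, a BiP co-chaperone gene (1.79 against 1.51 to 1.56), Edem2 (−1.23 against −1.53 to −1.49) and Ssr3 (5.55 against 5.42 to 5.44), and replicate 2 for Dnajc3 (3.24 against 2.87 to 2.92). In ATII cells with BAPN, Dnajb11 was at 4.34 on replicate 4 (4.24 to 4.26) and Ssr3 at 5.36 on replicate 5 (5.31 to 5.32). The calls of Pdia4 in fibroblasts with BAPN, and of Pdia4 and Ssr3 between the cell types in vehicle, used group means that hold arrays named here.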

How the results depend on the processing

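None of the 38 genes reversed a call under any alternative. In fibroblasts with BAPN, the count of 3 became 0 when only the 2 groups compared were fitted, 0 on slide 1 alone and 0 on slide 2 alone, 1 with no filter on dim probes, 1 with the spot column correction and 5 with slide as a block, and it ran from 0 to 2 with single arrays left out. Over 21 alternatives Pdia4 kept its call in 12, and Sec61b and Sec63 in 4 each. Between cell types in vehicle, the count of 14 became 8 on slide 1 alone and 8 on slide 2 alone. Under BAPN, the count of 6 became 3 on slide 2 alone.

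With a replicate block, the counts were 11 in vehicle, 4 under BAPN, 0 in fibroblasts with BAPN, 0 in ATII cells with BAPN and 0 for the difference. Deviations of arrays with the same number correlated at r = −0.027, 0.288 and 0.052 in fibroblasts and 0.408, −0.015 and 0.001 in ATII cells (29578 probes). For arrays with different numbers, r ran from −0.388 to 0.28 in fibroblasts and from −0.248 to 0.318 in ATII cells. The highest r in each cell type thus came from a pair with the same number, while the other such pairs lay between −0.027 and 0.052. Every pair with the same number also shared a slide. Among pairs with different numbers on the same slide, r ran from −0.388 to −0.322 in fibroblasts and from −0.248 to −0.144 in ATII cells. Those values lay below every same-number pair of their cell type. The main fit did not take the numbers as pairs, and so few values cannot decide whether they are. The counts with the replicate block therefore stand beside those of the main fit.

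Over all probes, the 4842 calls in fibroblasts with BAPN became 2982 with only those 2 groups, 0 with the replicate block, 426 and 7674 on slides 1 and 2, 2306 after the column correction and 2611 with slide as a block as well, a combination added after seeing the data, and 1423 to 4651 with 1 array left out (1423 without BAPN replicate 2). In ATII cells, 0 calls became 5894 on slide 2 alone, where the BAPN group is 1 array. The 13091 calls in vehicle became 6645 and the 12028 under BAPN 3454 on slide 2. The difference, with 0 calls, had 89 on slide 1 and up to 628 without ATII BAPN replicate 4. The number of arrays limits the precision.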
